A study of Mus musculus with 108 samples.

Results

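Of the 52850 autosomal bins of 200 bp that carried the active TSS state (state 1) in the livers of 3 months old mice, 11223 carried an active enhancer state (state 3 or 4) in both groups of 12 months old mice, or 21.2% (Wilson 95% interval 20.9 to 21.6). These bins were chosen by their state alone: state 1 in SD 3m, and state 3 or 4 in both SD 12m and CR 12m. They make up 11223 of the 12313718 autosomal bins. A transcription start site (TSS) lay in 581 of them, 4050 lay within 2 kb of one, and 6592 were distal, over 2 kb from the TSS of the longest curated RefSeq transcript of any gene. Since the states chose the bins, the counts of bins that moved are a description and carry no test.

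Livers of inbred C57BL/6 female mice were fixed in formalin and kept in paraffin blocks. SD 3m comprised 8 mice aged 3 months and SD 12m 8 mice aged 12 months, all on standard diet (SD), and CR 12m comprised 9 mice aged 12 months that had been on 30% caloric restriction (CR) since the age of the SD 3m group. ChIP-seq of the 4 marks H3K4me3, H3K27me3, H3K27ac and H3K4me1 gave 30, 29 and 29 libraries in these groups, of which 7, 8 and 5 were for H3K4me3. The libraries of a group were merged before ChromHMM, a hidden Markov model of mark combinations, gave each bin 1 of 8 states, so there is 1 segmentation per group and the spread between mice cannot be set beside any difference. The read depth behind the labels is unknown. The liver is a mixture of cell types, and a bin that loses a mark in every cell cannot be told apart from a bin whose marked cells have become fewer.

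H3K4me3 is deposited around the start sites of transcribed genes, most densely over unmethylated CpG islands, where proteins with CXXC domains recruit the methyltransferases. H3K4me1 and H3K27ac without H3K4me3 are the usual signature of an active enhancer, and H3K27ac is shared by active promoters and enhancers. The study ties states 1 and 2 to TSSs and states 3 and 4 to enhancers, by combinations of H3K4me3, H3K27ac and H3K4me1. Its text does not list the marks state by state. State 1 is read here as H3K4me3 with H3K27ac and state 2 as both with H3K4me1. State 3 is read as H3K27ac with H3K4me1 and state 4 as a weaker H3K27ac signal. A state is the most likely label given the bin and its neighbours, so a move from state 1 to state 3 or 4 is a change of label and does not show which mark was called in that bin.

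The sequence of the bins differed by location, and a few are shown with each CG dinucleotide in capitals, because CG content differed between the bins that moved and those that stayed. All are from the reference genome (RefSeq, GRCm38.p6), 5′ to 3′. The first 4 are bins in the middle of long distal stretches: 22.5 kb from the TSS of Qsox1 (chr1:155838401-155838600, plus strand), near Echdc2 (chr4:108158601-108158800, plus strand), near Ugp2 (chr11:21384201-21384400, plus strand) and in an intron of Cyp2c39 (chr19:39527201-39527400, plus strand). They held 1, 0, 2 and 0 CG.
Qsox1 distal: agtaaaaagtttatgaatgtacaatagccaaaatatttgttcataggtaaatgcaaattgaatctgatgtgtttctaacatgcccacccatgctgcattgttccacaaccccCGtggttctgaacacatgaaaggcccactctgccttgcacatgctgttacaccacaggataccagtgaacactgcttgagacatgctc
Echdc2 distal: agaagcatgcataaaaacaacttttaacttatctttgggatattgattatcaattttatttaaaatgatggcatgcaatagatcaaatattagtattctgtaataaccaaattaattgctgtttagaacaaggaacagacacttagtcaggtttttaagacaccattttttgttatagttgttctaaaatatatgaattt
Ugp2 distal: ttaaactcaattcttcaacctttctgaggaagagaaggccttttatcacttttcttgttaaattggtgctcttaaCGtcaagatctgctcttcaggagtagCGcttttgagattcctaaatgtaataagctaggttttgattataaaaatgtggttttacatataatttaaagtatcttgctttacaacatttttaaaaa
Cyp2c39 intron: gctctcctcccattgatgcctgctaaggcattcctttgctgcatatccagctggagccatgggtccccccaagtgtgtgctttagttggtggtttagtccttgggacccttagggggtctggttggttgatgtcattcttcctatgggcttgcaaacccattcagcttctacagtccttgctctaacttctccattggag

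The next 2 are the 200 bases before the TSS of genes whose TSS bin moved: Kifc1 (chr17:33890634-33890833, minus strand) and Mlxipl (chr5:135089690-135089889, plus strand). They held 21 and 16 CG, and the Kifc1 sequence runs from the TSS bin into a bin that was in state 2 in SD 3m.
Kifc1 upstream: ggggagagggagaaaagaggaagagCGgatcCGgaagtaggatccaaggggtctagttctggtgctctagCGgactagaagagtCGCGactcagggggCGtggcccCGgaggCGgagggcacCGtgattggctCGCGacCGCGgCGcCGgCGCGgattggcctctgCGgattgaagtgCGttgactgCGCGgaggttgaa
Mlxipl upstream: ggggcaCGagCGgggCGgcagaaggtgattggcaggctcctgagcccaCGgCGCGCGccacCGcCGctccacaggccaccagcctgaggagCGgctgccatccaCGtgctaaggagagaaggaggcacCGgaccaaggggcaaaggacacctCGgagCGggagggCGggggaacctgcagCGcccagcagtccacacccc

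The last precedes the TSS of Tbp, which codes for the TATA-binding protein and whose TSS bin stayed in state 1 in all 3 groups (chr17:15499688-15499887, plus strand). It held 11 CG, fewer than either of the sequences before it, while on average the bins kept in state 1 held more. This sequence begins in a bin that was in state 2 in all 3 groups and ends in the TSS bin, so its count is not that of a kept bin. Kifc1, Mlxipl and Tbp were picked for display after their states were seen.
Tbp upstream: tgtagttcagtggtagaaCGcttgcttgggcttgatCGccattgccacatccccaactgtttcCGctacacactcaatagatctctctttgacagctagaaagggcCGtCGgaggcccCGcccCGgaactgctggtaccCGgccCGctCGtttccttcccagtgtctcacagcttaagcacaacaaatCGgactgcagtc

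The location of the bins went against the name active TSS for most of those that moved. Distal bins made up 58.7% of the bins that moved (57.8 to 59.6), 28.9% of all state 1 bins in SD 3m and 10.1% of the bins that kept state 1 in both 12-month groups. Among the distal state 1 bins, 43.1% moved (6592 of 15294) and 16.3% were kept. Of the state 1 bins that held a TSS, 7.93% moved (581 of 7330) and 68.5% were kept, and of those within 2 kb of a TSS, 13.4% moved (4050 of 30226) and 56.6% were kept. State 1 bins over TSSs numbered 7330 at 3 months, 7251 in SD 12m and 6288 in CR 12m. Those within 2 kb of a TSS numbered 30226, 31320 and 26428 in the same order, and distal ones 15294, 8000 and 5628.

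The share that moved rose with distance over the first 2 kb and changed less beyond. It was 8.15% up to 500 bp from the TSS, 18.3% from there to 1 kb, 31.8% between 1 and 2 kb, 40.1% between 2 and 5 kb, and between 41.9% and 45.0% in the bands beyond. In the 200 bp just inside the 2 kb limit it was 39.2% (202 of 515) and in the 200 bp just beyond it 35.8% (152 of 424); the nearest distal bin lay 2003 bp away and the farthest one inside the limit 1999 bp. Upstream and downstream of the TSS differed. Of the state 1 bins within 2 kb, 24.7% of those upstream moved (2242 of 9086; 23.8 to 25.6) and 8.55% of those downstream (1808 of 21140; 8.18 to 8.94). Along the gene's strand the share was lowest 0.2 kb into the gene, at 4.80%, and reached 40.4% at 1.6 kb upstream and 28.6% at 2 kb downstream.

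**Figure D1:**
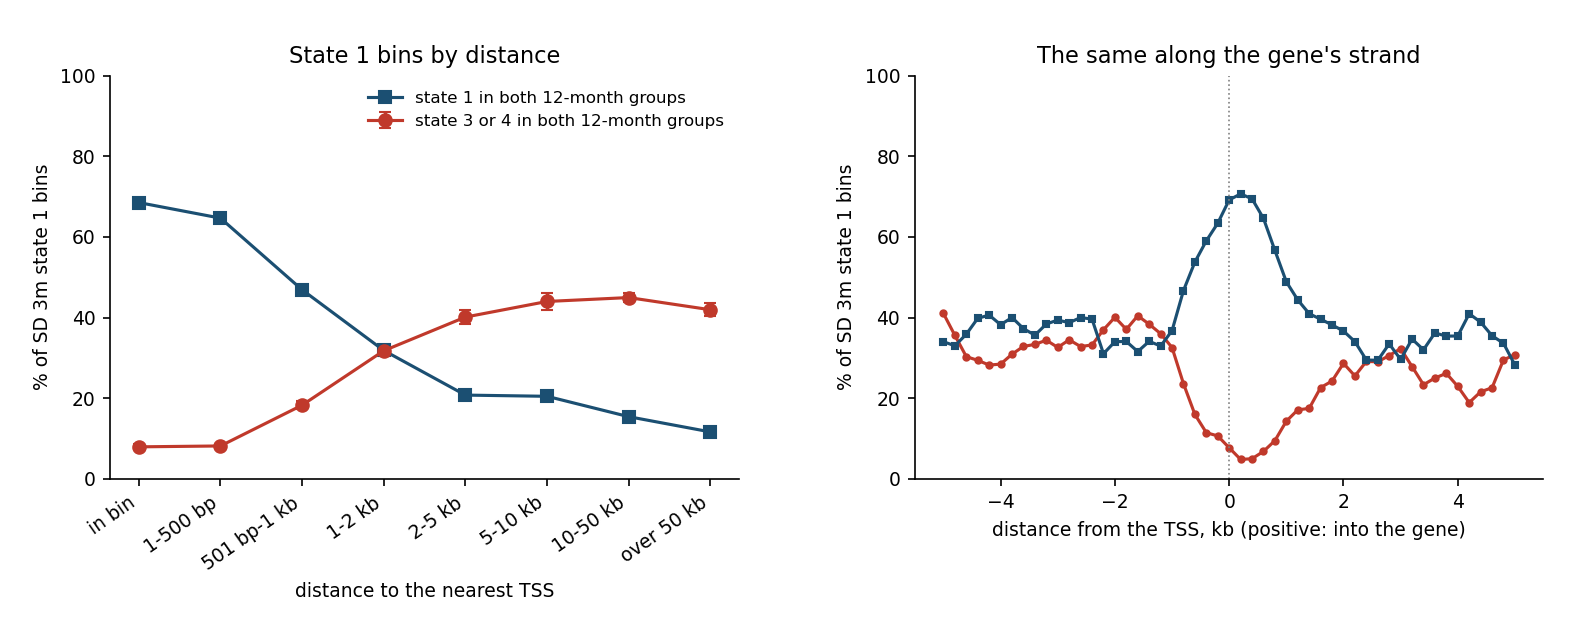
Percent of the SD 3m state 1 bins that were in state 3 or 4 in both 12-month groups (red circles) or in state 1 in both (blue squares), against the distance of the bin to the nearest TSS (left; bars are Wilson 95% intervals over bins, drawn for the red points) and against its position along the strand of each gene from 5 kb before to 5 kb after the TSS (right; a bin counts once for each gene). On the left the red share is 7.93% in bins that hold a TSS and 40.1% to 45.0% in the 4 bands beyond 2 kb, and on the right, where a bin beyond 2 kb can lie near the TSS of another gene, it runs from 18.9% to 41.0% there and is lowest 0.2 kb inside the gene.

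The enhancer state the bins took was mostly state 4, read here as the one with the weaker signal. State 4 was found in both 12-month groups in 6724 of the 11223 bins (59.9%) and state 3 in both in 2411 (21.5%). Another 1580 bins took state 4 with standard diet but state 3 with caloric restriction, and 508 bins the reverse. Distal bins were in state 3 in 26.3% of cases in SD 12m and in 39.6% in CR 12m, while TSS bins were in state 3 in 23.1% and 28.7%.

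Each 12-month group alone held more state 1 bins in states 3 and 4 than the pair did. In SD 12m they were 13789, or 26.1% of the state 1 bins of SD 3m, and in CR 12m 17270, or 32.7%. Bins that moved in 1 group only were 2566 in SD 12m (4.86%) and 6047 in CR 12m (11.4%). TSS bins moved in 11.6% of cases in SD 12m and 20.1% in CR 12m, near bins in 17.2% and 23.2%, and distal bins in 50.6% and 57.4%. Both shares rest on 1 young segmentation, whose errors would enter both. CR 12m had 5 H3K4me3 libraries and SD 12m had 8, and the part of library number in the higher share was not tested.

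**Figure D2:**
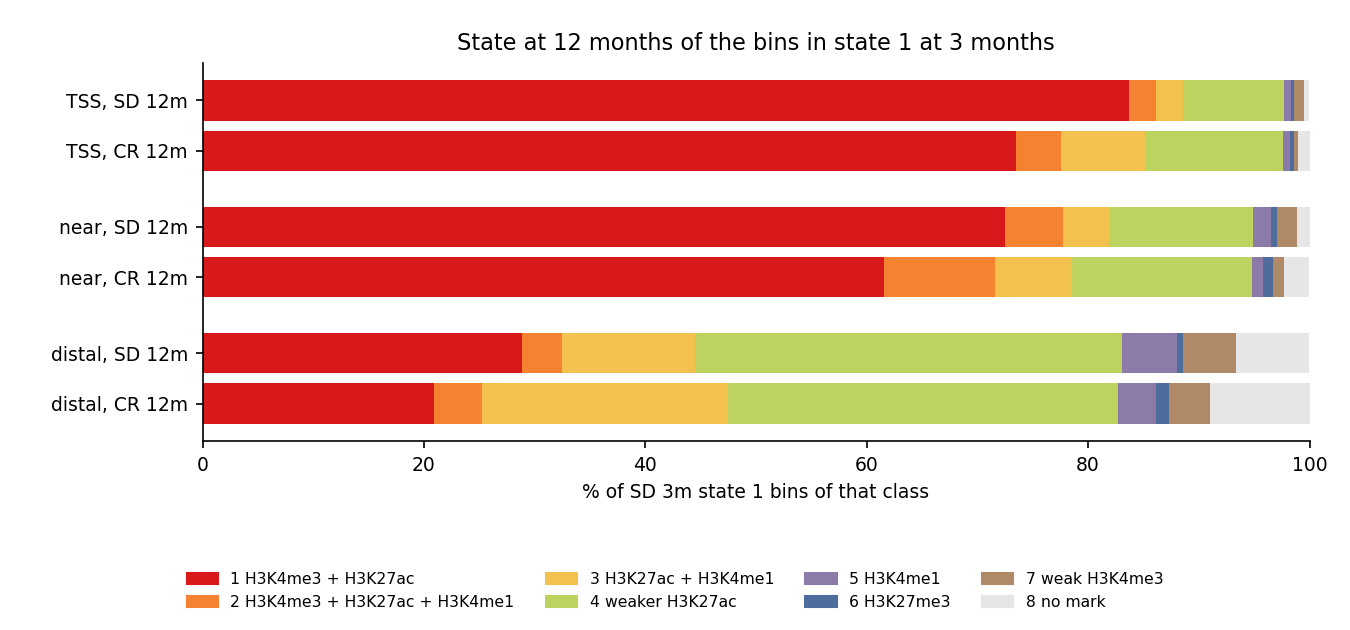
Chromatin state in SD 12m and CR 12m of the bins that were in state 1 in SD 3m, as percent of the 7330 TSS bins, 30226 bins within 2 kb of a TSS (near) and 15294 distal bins, with each colour standing for 1 of the 8 states. State 1 fills 83.7% and 73.5% of the TSS bars, and states 3 and 4 together fill 50.6% and 57.4% of the distal bars.

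Fewer bins went from state 3 or 4 to state 1. Of the 2045585 autosomal bins in state 3 or 4 in SD 3m, 497 were in state 1 in both 12-month groups (0.0243%), 1773 in SD 12m and 1366 in CR 12m. State 1 was also gained from other states: 14113 of the 46571 state 1 bins of SD 12m (30.3%) and 11150 of the 38344 of CR 12m (29.1%) were not in state 1 in SD 3m. The bins in state 2, read here as H3K4me3 with both enhancer marks, moved to state 3 or 4 in both 12-month groups in 53.2% of cases (78684 of 147986). The bins that moved from state 1 were 0.505% of the 2221396 bins in state 3 or 4 in both 12-month groups.

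The bins lay in 4648 unbroken stretches, 2191 of them distal, 1885 near a TSS and 572 over one. Single bins made up 50.8% of the stretches, but 62.7% of the bins lay in stretches of 3 or more bins. Of the 102 stretches of 10 or more bins, 91 were distal, 8 near and 3 over a TSS. In 77.0% of the distal stretches the whole SD 3m state 1 stretch had moved, against 36.9% of the stretches over a TSS. A stretch over a TSS touched a bin still in state 1 in a 12-month group in 62.4% of cases and a distal one in 17.8%. Seen from the 15194 state 1 stretches of SD 3m, 3.14% of those over a TSS moved whole (211 of 6730), 25.2% of those near one (1103 of 4371) and 41.2% of the distal ones (1688 of 4093). Bins at the first or last place of a state 1 stretch moved in 23.1% of cases and bins inside in 19.5%; these shares were 44.9% and 41.6% among distal bins, 16.7% and 10.2% near TSSs and 8.86% and 6.88% over TSSs. Bins 3 or more places from both ends moved in 23.8% of cases over all locations, in 40.6% among distal bins and in 8.89% near TSSs.

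CpG content followed location and, within each location, the outcome. Distal bins that moved held 2.32 CG per bin, against 10.3 in distal bins kept in state 1 and 1.69 over all autosomal bins, and their GC content was 42.3%, 54.9% and 41.9% in the same order. Near bins that moved held 7.20 CG per bin and those kept 16.6. Over TSSs the averages were close, at 18.3 and 20.04 CG per bin, with GC contents of 66.90% and 67.02%. Of all state 1 bins with 0 to 2 CG 45.4% moved, and of those with 20 or more 6.14% did. In each location the share fell with CG count, from 49.5% to 12.1% among distal bins, from 36.4% to 5.10% near TSSs and from 25.3% (25 of 99) to 7.34% over TSSs, although near and over TSSs the band of 20 or more lay slightly above the one before it. At 20 or more CG, the distal bins still moved more often than TSS bins, at 12.1% (10.02 to 14.62) against 7.34% (6.54 to 8.23). Neighbouring bins share marks and sequence, so these intervals cover the counting of bins only.

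**Figure D3:**
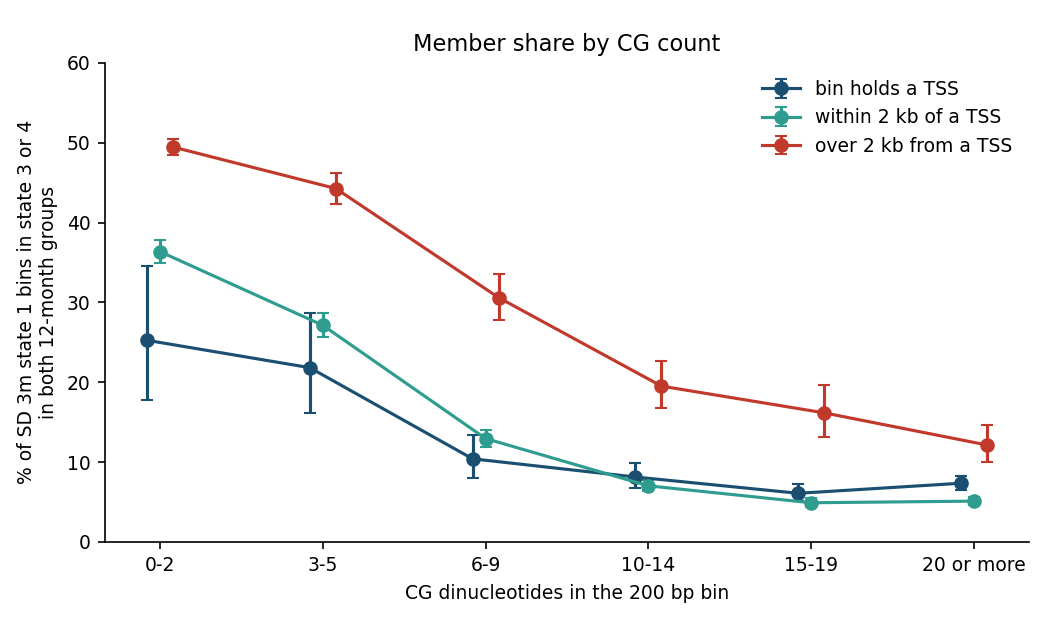
Percent of the SD 3m state 1 bins in state 3 or 4 in both 12-month groups, against the number of CG dinucleotides in the bin, for bins that hold a TSS, lie within 2 kb of one or lie farther away; bars are Wilson 95% intervals over bins. All 3 lines fall from left to right up to 15 to 19 CG, and the distal line is the highest in each band.

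Repeat sequence, taken as the soft-masked bases, filled 38.7% of the distal bins that moved, 21.4% of the distal bins kept in state 1 and 33.5% of all autosomal bins. Near TSSs it filled 23.2% and 8.07%. By the middle base of the bin, 62.5% of the distal bins that moved were intergenic, 30.7% intronic and 6.83% exonic. Of the kept distal bins, 30.4%, 41.6% and 28.0% were in these classes.

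Exact short motifs were counted on both strands of each bin, as letters and not as bound sites. The GC box GGGCGG, read by SP and KLF factors, was in 66.95% of the TSS bins that moved and 63.9% of those kept, and in 4.89% of the distal bins that moved against 29.4% of those kept and 2.01% of all autosomal bins. The ETS motif CCGGAAGT was in 3.10% of the TSS bins that moved, 9.16% of those kept and 0.124% of all autosomal bins. The YY1 motif AAGATGGCG was in 1.03%, 4.08% and 0.208% of the same sets, the NRF1 motif GCGCATGCG in 1.89%, 3.41% and 0.0307% and the CRE TGACGTCA in 3.44%, 3.05% and 0.111%. The TATA box TATAAA was in 18.98% of the distal bins that moved, 8.54% of those kept and 18.92% of all bins. Motifs of liver factors were at similar shares in distal bins that moved and in all bins: TGTTTAC, read by FOXA factors, in 3.55% and 2.98%, CAAAGTCCA, read by HNF4A, in 0.303% and 0.257%, GTTAATNAT, read by HNF1, in 0.774% and 0.703%, and TTGCNNAA, read by C/EBP factors, in 8.63% and 9.28%. The AP-1 motif TGANTCA was in 6.48% and 5.96%, the E-box CACGTG in 1.97% and 1.99% and the CCAAT box CCAAT in 29.6% and 29.1%. Distal bins kept in state 1 held the FOXA, HNF4A, HNF1 and C/EBP motifs in 2.45%, 0.241%, 0.241% and 7.06% of cases. They held the AP-1 motif, the E-box and the CCAAT box in 3.69%, 3.05% and 19.1%.

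By gene, 7710 autosomal genes had their TSS in a state 1 bin in SD 3m, and the TSS of 593 of them was in a bin that moved, or 7.69% (7.12 to 8.31). In SD 12m alone 864 TSSs were in state 3 or 4 and in CR 12m alone 1511, while 5334 kept state 1 in both. At 287 of the 593 (48.4%) some state 1 was still found within 2 kb in both 12-month groups, and at 117 (19.7%) neither state 1 nor state 2 was left within 2 kb in either group. Over all 7710 genes, these 117 included, 200 (2.59%) had none left. The TSS lay in a stretch of a single bin that moved at 214 of the 593 and in a stretch of at least 5 bins at 76. Protein-coding genes moved in 7.72% of cases (551 of 7136), lncRNA genes in 5.32% (25 of 470) and miRNA genes, for which the annotated start is that of the hairpin, in 19.7% (12 of 61). Those 12 shared loci, such as Mir142 with Mir142b and Mir132 with Mir212, and lay in 8 stretches that moved, while the 61 lay in 56 state 1 stretches.

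The longest stretches over a TSS spanned up to 3 kb. Zfp420, a zinc finger gene (TSS at chr7:29859979), lay in 15 bins that moved, all upstream of or at its TSS, with 2 state 1 bins just downstream in both 12-month groups. Pogk, which codes for a KRAB protein derived from a transposable element (chr1:166409828), had 13 state 1 bins within 2 kb of its TSS in SD 3m, and all 13 were in state 4 in both 12-month groups. Trerf1, a zinc finger regulator of transcription, had 9 state 1 bins there and Kifc1, a kinesin of the mitotic spindle (chr17:33890633), had 8, and all of these were likewise in state 3 or 4.

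Of the remaining genes among the 12 with a TSS in the longest stretches, 5 kept some state 1 within 2 kb in both 12-month groups or in SD 12m. Mir142 and Mir142b, hairpins on opposite strands of 1 locus that is best known in blood cells (chr11:87756864 for the first), lay in the same stretch of 9 bins and had no state 1 left within 2 kb. Ube2q2, a ubiquitin-conjugating enzyme, had 12 state 1 bins within 2 kb at 3 months, 4 in SD 12m and 3 in CR 12m. Atp1b3, a subunit of the sodium pump, had 8, then 1 and 2. Ccne2, which codes for cyclin E2 and opens S phase with CDK2, had 10, then 2 and 2. Septin8, a cytoskeletal GTPase, had 9, then 3 and 0, and the lncRNA genes 4933433G19Rik and Gm39307 had 21 and 8 at 3 months, 7 and 0 with standard diet and 3 and 0 with caloric restriction. The TSS bins of all 12 were in state 4 in both 12-month groups.

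**Figure D4:**
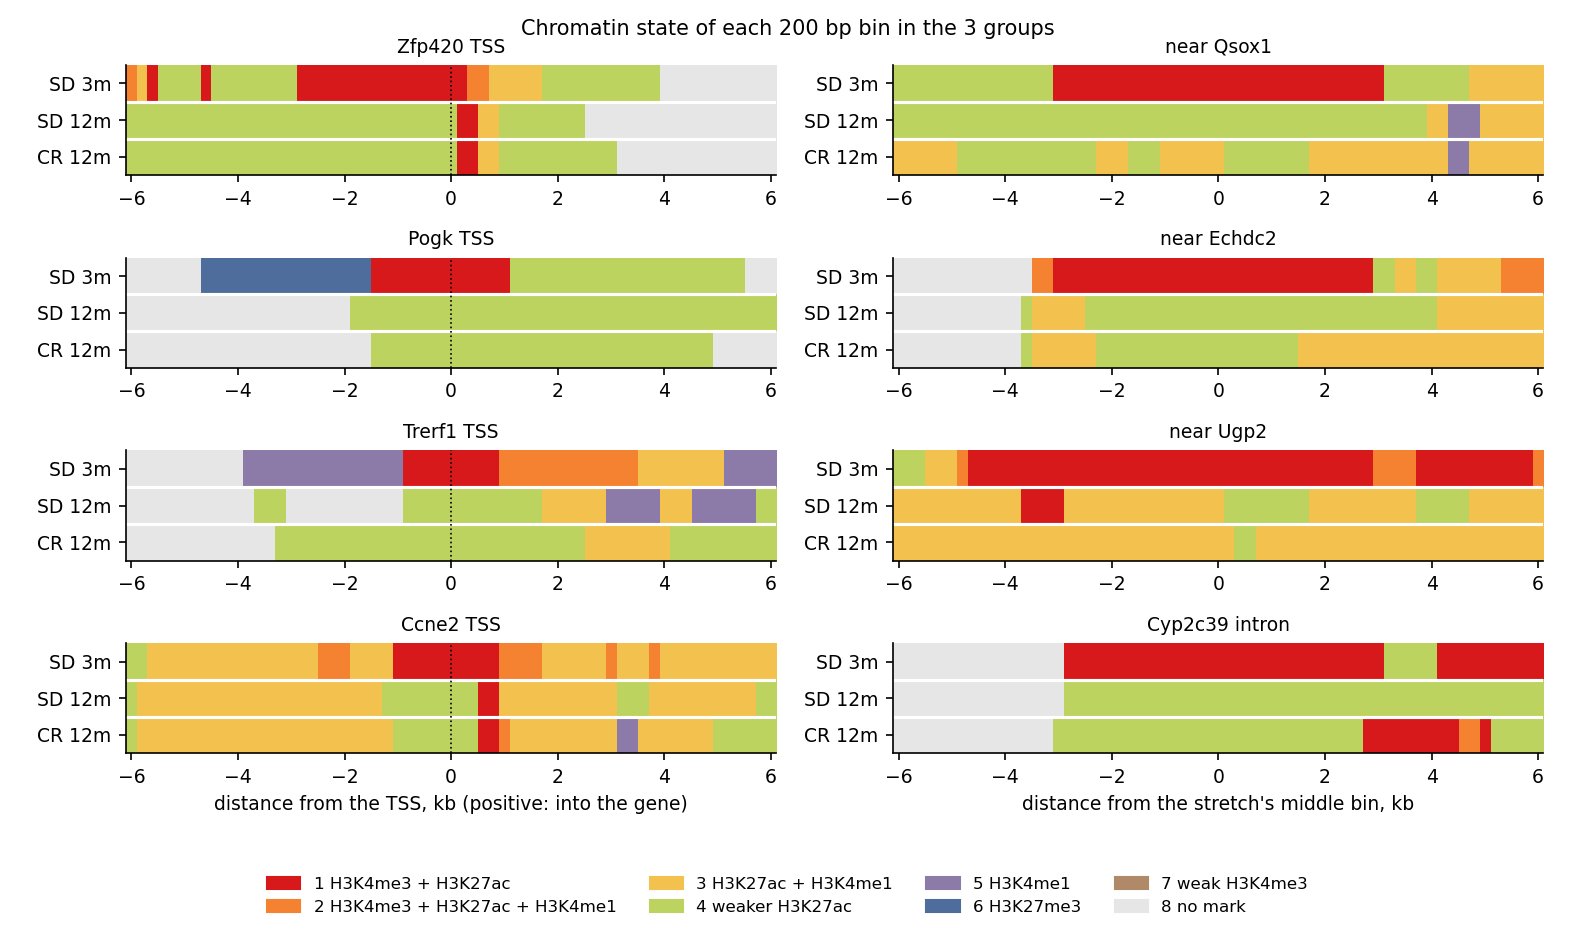
Chromatin state of each bin from 6 kb before to 6 kb after the TSS of Zfp420, Pogk, Trerf1 and Ccne2 (left, along the gene's strand, dotted line at the TSS) and around the middle of 4 long distal stretches (right), with SD 3m in the top row, SD 12m in the middle row and CR 12m in the bottom row. The red blocks of state 1 in the top rows, among them 31 bins near Qsox1 and 38 near Ugp2, are mostly green (state 4) or yellow (state 3) in the lower rows.

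Genes were then read in 15 lists of liver and ageing functions, against the 7.69% of all genes. The circadian clock list had 4 of 13 state 1 TSSs in bins that moved (12.7 to 57.6%): Nr1d2, a repressor of the clock loop that moved over 2 bins to state 4, Csnk1e, the kinase that marks PER proteins for decay, also over 2 bins, and Cry2 and Per2, repressors of CLOCK and BMAL1, over 1 bin each to state 3. Cry2 and Per2 each had a single state 1 bin within 2 kb in SD 3m. In SD 12m and CR 12m, state 1 covered 0 and 1 bins around Cry2 and 0 in both around Per2. States 1 and 2 together covered 10 bins around Cry2 in both 12-month groups and 5 and 10 bins around Per2 in SD 12m and CR 12m. The 2 states were not counted together in SD 3m, so no change can be read from these sums. At Nr1d2, 6 state 1 bins within 2 kb in SD 3m were followed by 3 in each 12-month group.

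Secreted plasma protein genes had 4 of 17 (9.56 to 47.3%): F2 (prothrombin), Apoc3, an inhibitor of lipoprotein lipase, Hrg (histidine-rich glycoprotein) and Vtn (vitronectin). All 4 lay among promoter states in both 12-month groups: around F2, 12 state 1 bins within 2 kb in SD 3m were followed by 8 in SD 12m and 5 in CR 12m, around Apoc3 11 by 9 and 10, around Vtn 10 by 9 and 8, and around Hrg 10 by 2 and 3. The stretch that moved was the TSS bin alone at Apoc3, Hrg and Vtn.

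The cell cycle list had 5 of 32 (6.86 to 31.7%). Beside Ccne2 these were E2f1, the transcription factor of S phase genes, with 4 state 1 bins within 2 kb at 3 months and 2 and 0 in the 12-month groups; Ccnd2 (cyclin D2), with 10, 10 and 7; Btg2, an antiproliferative p53 target; and Mcm2, a subunit of the replicative helicase, which is named beyond the 4 genes per list so that the count is complete. The last pair had 1 state 1 bin each within 2 kb in SD 3m, in the TSS bin itself. In SD 12m and CR 12m, state 1 covered 0 bins in both around Btg2, and 1 and 0 around Mcm2. States 1 and 2 together, which were not counted in SD 3m, covered 10 and 6 bins around Btg2 in these groups, and 2 and 0 around Mcm2.

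Fatty acid and sterol synthesis had 3 of 27. Mlxipl, which codes for the glucose-responsive factor ChREBP, had 4 state 1 bins within 2 kb in SD 3m and 0 in both 12-month groups, and its TSS bin went to state 3 in both. Dgat2, the last enzyme of triglyceride synthesis, and Thrsp, a lipogenic gene that responds to thyroid hormone, also went to state 3 in both, with 10 bins of states 1 and 2 within 2 kb at 12 months. The 2 states were not counted together in SD 3m. State 1 alone covered 1 bin around Dgat2 in SD 3m and 0 in both 12-month groups. The antioxidant, sirtuin and NAD list had 3 of 21: Srxn1 (sulfiredoxin), Gclm, the modifier subunit of glutathione synthesis, and Sirt1, an NAD-dependent deacetylase. All 3 kept some state 1 within 2 kb. Srxn1 had 4 such bins in SD 3m, then 2 in SD 12m and 1 in CR 12m. Gclm had 4, then 2 and 3, and Sirt1 had 7, then 3 and 4. At Sirt1 the stretch that moved was the TSS bin alone. Sirt1 also stands in the list of writers and erasers of the 4 marks, which had 2 of 24, the other being Kdm1a, the demethylase that removes H3K4me1 and H3K4me2; 6 state 1 bins around its TSS in SD 3m were followed by 3 in both 12-month groups.

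Ribosomal protein genes had 3 of 52 (Rps20, Rps3 and Rps3a1), and the list of gluconeogenesis, amino acid catabolism and urea cycle 2 of 25 (Oat, ornithine aminotransferase, and Gys2, the liver glycogen synthase). The interferon and inflammatory list had 1 of 14 (Socs3, a brake on cytokine signalling), autophagy and proteostasis 1 of 31 (Hspa1a, an inducible HSP70), and the insulin, IGF and growth hormone axis 1 of 19 (Igf2r). The other lists had none, written here with the share that a count of 0 allows by 3 counts of the list and by the Wilson upper limit. They were 0 of 45 for oxidative phosphorylation (6.67% and 7.87%), 0 of 26 for fatty acid oxidation and ketogenesis and 0 of 26 for hepatocyte transcription factors (11.5% and 12.9% each) and 0 of 13 for cytochrome P450 genes (23.1% and 22.8%). The lists are short, were chosen with earlier results of these data known and were not tested. Apart from the clock and plasma protein lists the Wilson interval of each list held the 7.69% of all genes. The intervals of the 15 lists were not corrected for their number, so they do not set these lists apart from the others.

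Bins that moved anywhere in the transcribed span were found in 1994 of 24963 genes (7.99%), in 12 of 61 plasma protein genes (19.7%), 5 of 23 clock genes (21.7%) and 10 of 47 cell cycle genes (21.3%). These were the highest shares. The other lists lay on both sides of 7.99%, from 4.65% (autophagy and proteostasis) to 15.4% (antioxidant, sirtuin and NAD). Hepatocyte transcription factors, with none at a TSS, had 15.2%. Only 7710 of the 24963 genes had a state 1 TSS in SD 3m, so the base is not matched to the lists. Within 2 kb of the TSS, bins that moved were found at 2475 of the 24963 genes (9.91%), 10 plasma protein genes, 5 clock genes and 14 cell cycle genes. Cytochrome P450 genes held them in the span in 4 of 37 cases and within 2 kb of the TSS in 3, with none at a TSS.

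**Figure D5:**
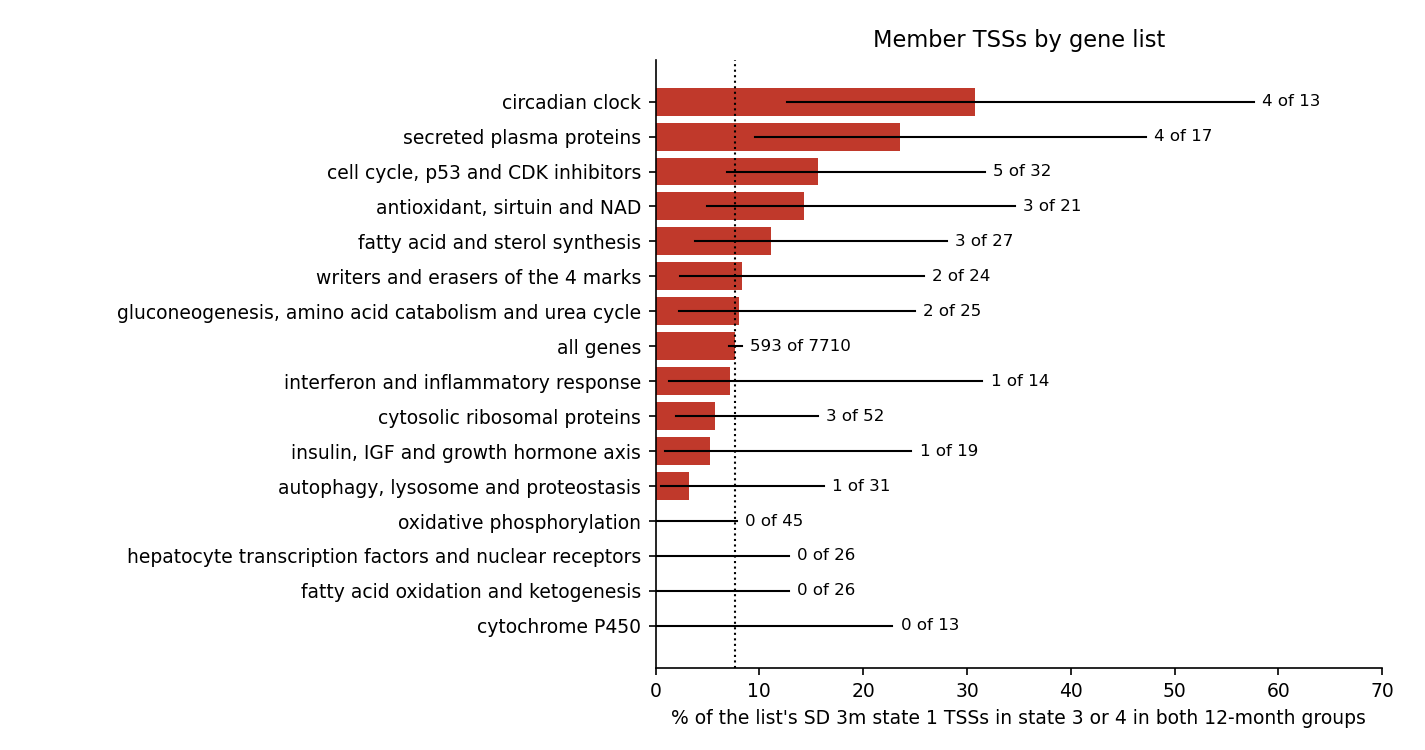
Percent of each list's state 1 TSSs in SD 3m that were in state 3 or 4 in both 12-month groups, with the count beside each bar; lines are Wilson 95% intervals over genes and the dotted line marks the 7.69% of all 7710 genes. The circadian clock (4 of 13) and plasma protein (4 of 17) bars are the longest, and 4 lists have no such TSS.

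Of the 41 marker TSSs of liver cell types, 4 were in state 1 in SD 3m and could have moved, and 0 of these 4 moved to state 3 or 4. The hepatocyte markers Apob, Tat and Cps1 kept state 1 in both 12-month groups. The stellate cell marker Dcn left it for state 6, the Polycomb state, in both. The tissue label was met: of 8 hepatocyte markers, 7 had their TSS in states 1 to 4 in SD 3m and 8 in both 12-month groups, against 1 of 7 lymphocyte markers in each group. Sinusoidal endothelial markers had 3 of 7 TSSs in states 1 to 4 at 3 months, 4 in SD 12m and 7 in CR 12m, Kupffer cell markers 2 of 6 in each, cholangiocyte markers 2, 3 and 4 of 6, and stellate cell markers 1, 2 and 1 of 7; their part in the shares that moved was not tested. The control genes Actb and Tbp stayed in state 1 in all 3 groups and Alb in state 4, while Gapdh went from state 2 to state 1, Apoa1 from state 4 to state 1 with standard diet or 3 with caloric restriction, and Ttr from state 3 to state 2 in SD 12m.

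The 8 longest distal stretches that were over 2 kb from the TSS of every RefSeq transcript ran from 4.8 to 6.2 kb. The longest, 31 bins at chr1:155835401-155841600, lay between genes, 22.5 kb from Qsox1, which codes for a secreted sulfhydryl oxidase. It was state 1 throughout in SD 3m with state 4 on both flanks, state 4 throughout in SD 12m, and 16 bins of state 3 and 15 of state 4 in CR 12m. The second, 30 bins at chr4:108155601-108161600, lay 3.84 kb from the TSS of Echdc2, an enoyl-CoA hydratase domain gene. It was 71.7% repeat sequence and was in state 4 in 27 bins of SD 12m and 19 of CR 12m. The stretch at chr11:21381401-21387200, 10.1 kb from the TSS of Ugp2, which makes the UDP-glucose for glycogen, was the only one of the 8 mainly in state 3 in both 12-month groups, with 21 of 29 bins on standard diet and 27 on caloric restriction.

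The stretch at chr8:123174601-123180400 (29 bins), across the lncRNA gene Gm4316 near Dpep1, lay only 2.04 kb from the nearest TSS of any RefSeq transcript. Others were at chr19:39524401-39530000 (28 bins) in an intron of Cyp2c39, a fatty acid and retinoid hydroxylase gene, and at chr15:82579801-82585000 (26 bins), 24.7 kb from Cyp2d12. At the last, 21 bins were in state 4 in SD 12m and all 26 were in state 3 in CR 12m. A pair of stretches lay in 1 intergenic region, at chr6:37696201-37702000 (29 bins) and chr6:37673001-37677800 (24 bins), 12.7 and 36.9 kb from the nearest TSS of any RefSeq transcript, and 104 and 128 kb from that of the nearest gene with a curated one, the pseudogene Atp6v0c-ps2. These 8 stretches held between 0.5 and 2.41 CG per bin.

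The bins were unevenly spread. They were found in 2923 windows of 100 kb, and 57 windows with 20 or more held 2090 of them (18.6%). Windows named here were chosen after their values were seen. The window chr6:37700001-37800000 held 130 of 278 state 1 bins in SD 3m, or 46.8%, near the 43.1% of all distal state 1 bins. All 130 were distal by the TSSs of longest curated transcripts, and other RefSeq transcripts were not counted for this window. Its neighbours on either side held 73 of 101 and 82 of 165. The window chr19:39500001-39600000, over Cyp2c39, held 120 of 129, that at Ugp2 66 of 74 and that at Cyp2d12 61 of 69. Other dense windows had lower shares, with 48 of 87 in chr19:39400001-39500000 over Cyp2c38 and Cyp2c39. The window at Resf1 held 43 of 147 and that at Cyp3a41a 35 of 65. In chr1:164600001-164700000, where no gene was listed, 54 of 55 moved. Windows over the organic anion transporter genes Slc22a30 (48 of 61) and Slc22a26 and Slc22a27 (47 of 50) and over the N-acyltransferase genes Acnat1, Acnat2 and Baat (40 of 50), the last of which conjugates bile acids, were also among the densest. With the 57 windows left out, 37.2% of the distal state 1 bins moved, against 7.88% of the TSS bins. By chromosome the share of state 1 bins that moved ran from 15.1% on chromosome 12 to 30.1% on chromosome 6, and the distal share was above the TSS share on each of the 19 autosomes.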

How the data were processed

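ChIP-seq of 4 histone marks was performed by the authors on livers in paraffin. Per the labels and the study's methods, the authors aligned reads to mm10 with BWA 0.6.2-r126, filtered them with SAMtools 0.1.18 for mapping, chromosomes 1 to 19 and X and duplicates, merged the libraries of each group and mark, and assigned states with ChromHMM. The deposited value is a state label for each 200 bp bin of 3 segmentations, with no signal, score or depth, and the merging, the binarization and the smoothing of the model are already part of it. SD 6m was not analysed here.

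All 13168874 bins of each segmentation were read, and the last whole bin of each of the 20 chromosomes equalled that of GRCm38.p6. For each of 26089 genes the TSS of its longest curated RefSeq transcript was used. Distance is the gap between bin and TSS. Intervals are Wilson 95% intervals over bins or genes and do not describe mice. With 1 segmentation per group no test between groups was possible. Motifs were exact matches on both strands; overlaps between motifs were allowed. Python 3.11.15, numpy 2.4.6, scipy 1.17.1, pandas 2.3.3 and matplotlib 3.10.9 were used, and the counting was tested on simulated segmentations.

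The bins, gene lists and alternatives were chosen with earlier results of these data known. Genes named were the 12 with a TSS in the longest stretches (ties by bins that moved within 2 kb, then symbol), up to 4 genes per list in that order, the 8 longest distal stretches, and Actb, Alb, Apoa1, Gapdh, Tbp and Ttr; exceptions are stated where they occur. The alternatives were other minimum lengths, trimming of stretches, chromosome X, other state sets, 1 kb windows, other transcript sets and other distal limits.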

Additional observations from a re-analysis of the deposited data

How the results depend on the processing

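The main values were 11223 bins (21.2%), 593 genes (7.69%) and 6592 distal bins, with the percent taken of the bins, or of the genes with a TSS, that the setting leaves as the starting set in SD 3m. They were 8864 bins (16.8%), 379 genes (4.92%) and 5625 distal bins in stretches of at least 2 bins, 7034 bins (13.3%), 230 genes (2.98%) and 4753 distal bins in stretches of at least 3 bins, and 5274 bins (19.4%), 242 genes (6.71%) and 3471 distal bins without the first and last bin of each state 1 stretch (here of 27118 bins inside), settings that keep fewer bins by construction. With state 3 alone at 12 months they were 2411 bins (4.56%), 123 genes (1.59%) and 1466 distal bins, with state 4 alone 6724 bins (12.7%), 411 genes (5.33%) and 3715 distal bins, and with state 5 added 12564 bins (23.8%), 646 genes (8.38%) and 7406 distal bins. With state 1 or 2 in SD 3m, a larger starting set, they were 89907 bins (44.8%), 1130 genes (11%) and 49113 distal bins, so the choice of states moved the counts most among the settings run. The most frequent state in 1 kb windows gave 22.9% of bins and 9.69% of genes, every curated transcript 8.06% and every RefSeq transcript 9.39% of genes. With every curated transcript 6314 bins stayed distal, and with every RefSeq transcript 5897. Those 5897 held 1.78 CG per bin, against 2.32 in all 6592, and the GC box in 2.87% against 4.89%. Distal bins kept in state 1 were not recounted in this way. Leaving out the 100 kb windows with 20 or more bins that moved, chosen after seeing the data, gave 18.4% of bins, lower by construction. Adding chromosome X or setting the distal limit at 1 or 5 kb left each value within 1.5 times, or within the interval, of the main one. No paired analysis was possible because each group has 1 segmentation of merged libraries, and for the same reason no library could be left out in turn. The unknown depth of the merged libraries, 7, 8 and 5 of them for H3K4me3, limits each change of state.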
